A study of Mus musculus with 8 samples.

Results

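The 10 genes described here are transcripts that follow the MEK/ERK kinase cascade. They are the phosphatase genes Dusp6 and Dusp4, the signalling inhibitors Spry2, Spry4 and Spred1, and the transcription factor and early-response genes Egr1, Fos, Etv4, Etv5 and Ier3. They were chosen by name as a readout of the MEK inhibitor in 2i medium, with earlier results of these data known. Their symbols were matched to the Ensembl identifiers of the count files. All 10 were found among the 52550 genes listed, and all 10 passed the filter on low counts that left 20749 genes to test. Mouse embryonic stem cells (ESCs) at passage 3, either control or Dax1KO, were grown on gelatin-coated plates in 2i/LIF or in LIF/serum, and mRNA was sequenced in 2 libraries for each of the 4 groups. The 2i/LIF medium was N2B27 with 1 µM PD0325901, 3 µM CHIR99021 and 10 ng/ml LIF. The LIF/serum medium was DMEM with 15% FBS and 10 ng/ml LIF and held neither inhibitor. Dax1KO ESCs came from a lentiviral CRISPR/Cas9 vector with zeocin selection, were picked as colonies in 2i/LIF and were transferred to LIF/serum later. The study names a single knockout colony for its functional work, so the colony and the genotype cannot be told apart. The media differ in both inhibitors, in the basal medium and in serum together, so the MEK inhibitor and the rest of the medium cannot be told apart. Nothing in the labels says that the 2 libraries of a group came from separate cultures, so the p-values measure the spread between these libraries, which may be technical.

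In the ERK cascade, growth factor receptors act through RAS and RAF on the kinase MEK, which phosphorylates ERK, and ERK in turn phosphorylates transcription factors. PD0325901 blocks MEK, and CHIR99021 blocks the kinase GSK3. Immediate-early genes such as Egr1 and Fos are transcribed within minutes of ERK activity from factors already present in the cell. Feedback genes such as Dusp6, Spry4 and Spred1 follow and dampen the same cascade, either by removing phosphate from ERK or by acting on its upstream steps. In mouse ESCs the main known activator is autocrine FGF4, and ERK activity is known for moving the cells out of the naive state.

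Promoters are shown for Dusp6 and Fos, since Dusp6 fell strongly in 2i/LIF and Fos was the member whose counts lay in the opposite direction. Fos was chosen for this after its values were seen. The RefSeq promoter table (GRCm38.p6) held 7 windows for 6 of the 10 members, namely Dusp6, Spry2, Spred1, Fos, Ier3 and 2 windows of Etv5. Each sequence below is the 250 bases before the start of the gene, 5′ to 3′ on the strand of the gene. The capitals mark GGAA or its complement TTCC, the core letters that ETS factors bind, and TGACG, the first letters of the cAMP response element. Dusp6 is read at chr10:99262981-99263230 and Fos at chr12:85473640-85473889, both on the plus strand.
Dusp6: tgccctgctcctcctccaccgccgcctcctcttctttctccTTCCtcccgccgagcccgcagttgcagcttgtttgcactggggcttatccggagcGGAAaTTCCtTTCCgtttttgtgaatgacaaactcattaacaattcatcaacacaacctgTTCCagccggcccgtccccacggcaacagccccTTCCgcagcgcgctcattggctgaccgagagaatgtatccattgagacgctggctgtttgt
Fos: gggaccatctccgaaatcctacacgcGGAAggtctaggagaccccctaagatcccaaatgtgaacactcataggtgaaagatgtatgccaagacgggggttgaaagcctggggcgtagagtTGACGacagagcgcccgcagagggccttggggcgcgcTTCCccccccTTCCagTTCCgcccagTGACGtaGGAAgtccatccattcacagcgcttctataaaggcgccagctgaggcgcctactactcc
On both strands, the Dusp6 window holds GGAA 6 times and the Fos window 5 times. GGAA stands in 6 of the 7 member windows and in 93.4% of all 32851 promoters of the table. TGACG stands in the Fos window 2 times, in no other member window, and in 17.8% of all promoters. 4 longer motifs were searched first, namely the ETS core CCGGAA, the CArG box bound by SRF, the AP-1 site TGANTCA and the response element TGACGTCA. No match to any of them was found in the 7 windows, and they stand in 12%, 1.47%, 6.75% and 1.55% of all promoters in that order. Bases further than 250 upstream, and the members without a window, were not searched, so matches there are not excluded. The short letters were added after the values were seen, and a TGACGTCA match would also count as TGACG.

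The libraries held 35911384 to 37286251 counts, so the groups had similar count totals. Low values piled up at 3, 6, 8, 11 and 14 counts, which are multiples of 8/3 rounded up, so 1 count need not be 1 sequenced fragment. Not every higher multiple up to 25 stood out in every library. Dax1 (Nr0b1, chromosome X), the deleted gene, was counted in 2i/LIF at 456 and 300 in control and at 0 in both Dax1KO libraries, and at 5095 and 4689 against 14 and 6 in LIF/serum, so the libraries match their labels. The pluripotency genes Pou5f1, Sox2, Nanog, Zfp42, Esrrb and Utf1 were counted in every group, Pou5f1 at means of 18721 to 40632. In control ESCs Nanog was higher in 2i/LIF than in LIF/serum (log2 fold change 1.39, adjusted p = 7.44e-05, edgeR), and Pou5f1 (-0.68, adjusted p = 0.00469) and Utf1 (-1.19, adjusted p = 0.00161) were lower.

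The first comparison asked how the ERK-response genes differed between media in control ESCs. In 2i/LIF, 8 of the 10 genes were lower than in LIF/serum and 0 were higher. Among all 20749 genes tested, 16.5% were lower and 20.3% were higher, 36.8% in either direction. The median log2 fold change of the 10 genes was -2.17, beside 0.01 over all genes. In 6 of the 8 the change was at least 2-fold. Spry4, Egr1 and Dusp6 fell most, followed by Dusp4, Etv4 and Spry2, while Spred1 and Etv5 fell by less than 2-fold. Fos and Ier3 did not pass the test. Because these are bulk samples, fewer cells of a type and less RNA per cell cannot be told apart. All log2 fold changes here and below come from edgeR's quasi-likelihood test, with p-values adjusted by the Benjamini-Hochberg method over all genes tested and called at 0.05.

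Dusp6 (chr10:99263231-99267489, plus strand) encodes a cytoplasmic phosphatase that acts on ERK. Its normalized counts, that is counts scaled to a common library size, were 88.2 and 94.0 in the 2i/LIF control libraries and 2453 and 2171 in the LIF/serum control libraries. The 2i/LIF libraries were therefore both far below the LIF/serum libraries. Its log2 fold change between the media was -4.66 (SE 0.25, adjusted p = 2.15e-05), which is 25.3-fold lower in 2i/LIF. Dusp4 (chr8:34807297-34819894, plus strand), which encodes a nuclear phosphatase of the same family, had normalized counts of 143 and 171 in 2i/LIF and of 904 and 701 in LIF/serum. The groups did not overlap, and Dusp4 was 5.10-fold lower in 2i/LIF (log2 fold change -2.35, SE 0.22, adjusted p = 0.000194).

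Sprouty proteins interrupt receptor signalling upstream of RAF, and Spred1 recruits neurofibromin to switch RAS off. Spry4 (chromosome 18) had normalized counts of 97.3 and 222 in the 2i/LIF control libraries and 9667 and 8871 in the LIF/serum control libraries. The 2 libraries in 2i/LIF differed 2.28-fold from each other, which is small beside the 58.0-fold difference between the media (log2 fold change -5.86, SE 0.40, adjusted p = 5.04e-05). The log2 fold change of Spry4 was -6.62 without replicate 2 and -5.38 without replicate 1 of the 2i/LIF control. Spry2 (chr14:105891947-105896819, minus strand) had normalized counts of 1015 and 825 in 2i/LIF and of 3886 and 4103 in LIF/serum. It was 4.34-fold lower in 2i/LIF (log2 fold change -2.12, SE 0.17, adjusted p = 9.2e-05), with no overlap between the groups. Spred1 (chr2:117121374-117182279, plus strand) stayed at a high count in both media, at 1930 and 2169 in 2i/LIF and 4018 and 3033 in LIF/serum. Spred1 had a log2 fold change of -0.78 (SE 0.17, adjusted p = 0.0079). Without replicate 1 of the 2i/LIF control the adjusted p was 0.0554.

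Egr1 (chromosome 18) is a zinc finger transcription factor and a classical immediate-early gene. Its normalized counts were 64.2 and 40.0 in the 2i/LIF control libraries and 3080 and 2315 in the LIF/serum control libraries. It was 51.7-fold lower in 2i/LIF (log2 fold change -5.69, SE 0.53, adjusted p = 0.00018), and the estimates of Egr1 and Spry4 lay within their errors of each other. Etv4 and Etv5 are ETS transcription factors of the PEA3 group, known as targets of FGF signalling. Etv4 (chr11:101769742-101785371, minus strand) had normalized counts of 718 and 751 in 2i/LIF and of 3662 and 3172 in LIF/serum. It was 4.65-fold lower in 2i/LIF, with a log2 fold change of -2.22 (SE 0.13, adjusted p = 2.94e-05). Etv5 (chr16:22381309-22439719, minus strand), its paralog, had 8253 and 9999 in 2i/LIF and 14404 and 12426 in LIF/serum. The groups were apart, but its difference was 1.47-fold (log2 fold change -0.56, SE 0.16, adjusted p = 0.0289). The adjusted p of Etv5 was 0.163 without replicate 1 of the 2i/LIF control and 0.125 without replicate 1 of the LIF/serum control, and 0.068 without the filter on low counts. Over 42.8% of the longest Etv5 transcript another annotated gene, Gm4798, matched at 95% identity or more, and Gm4798 was itself counted at 104 to 300 per library.

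Fos (chr12:85473890-85477273, plus strand) encodes a subunit of the AP-1 transcription factor and is, with Egr1, a standard immediate-early gene. Its normalized counts were 248 and 164 in the 2i/LIF control libraries and 135 and 119 in the LIF/serum control libraries. Both 2i/LIF libraries lay above both LIF/serum libraries, opposite to Egr1, but the difference missed the threshold (log2 fold change 0.70, SE 0.26, 95% interval 0.09 to 1.30, adjusted p = 0.0701). Without replicate 2 of the 2i/LIF control Fos passed (log2 fold change 0.92, adjusted p = 0.0458), and without replicate 1 it had 0.37 (adjusted p = 0.358). Ier3 (chr17:35821684-35822923, plus strand), an early-response gene that encodes a substrate of ERK, had 383 and 474 in 2i/LIF and 243 and 730 in LIF/serum. The LIF/serum libraries of Ier3 differed 3.00-fold from each other and enclosed the 2i/LIF libraries. Its log2 fold change was -0.18 with a 95% interval from -1.72 to 1.36 (adjusted p = 0.859), so a difference of either direction was not detectable here. In all, 9 of the 10 genes had groups that did not overlap, which 68.6% of all genes did.

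**Figure D1:**
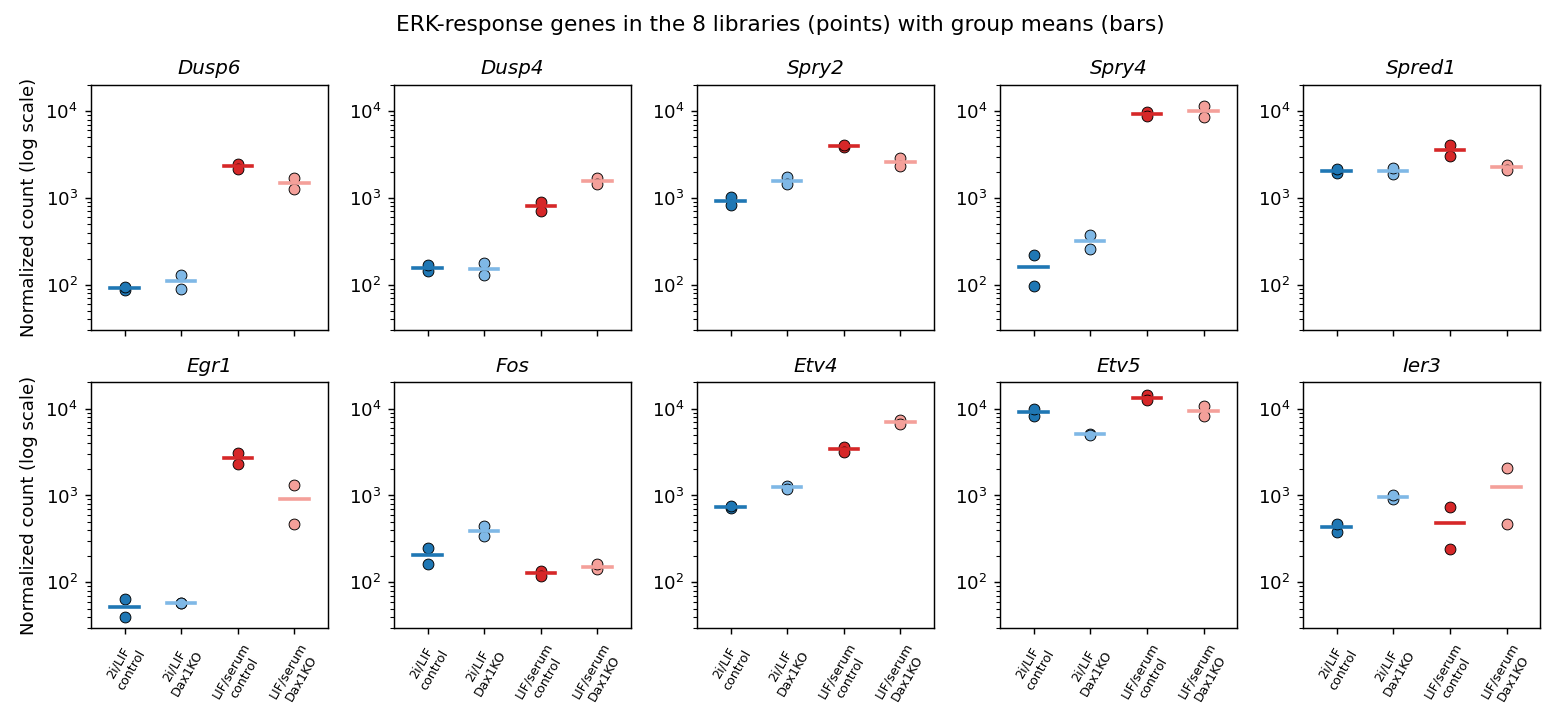
Normalized counts (log scale) of the 10 ERK-response genes in each of the 8 libraries, one panel per gene, with points for libraries and bars for group means. Dusp6, Spry4 and Egr1 are the genes with the widest gap between the 2i/LIF and the LIF/serum libraries, Fos lies higher in 2i/LIF, and the LIF/serum libraries of Ier3 spread widely.

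The same comparison of media was made in Dax1KO ESCs, which share no library with the comparison in control ESCs. Here 7 of the 10 genes were lower in 2i/LIF and 1 was higher, beside 13.7% lower and 15.2% higher among all genes and 28.9% called in either direction. The median log2 fold change of the 10 genes was -1.70, beside 0.01 over all genes. Dusp6, Dusp4, Spry4, Egr1 and Etv4 each fell at least 5.66-fold. Spry2 and Etv5 fell by less than 2-fold, Fos rose, and Spred1 and Ier3 did not pass the test.

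Dusp6 had normalized counts of 89.5 and 129 in 2i/LIF and of 1714 and 1252 in LIF/serum, a log2 fold change of -3.76 (SE 0.24, adjusted p = 4.87e-05). Dusp4 had 129 and 178 in 2i/LIF and 1691 and 1450 in LIF/serum, a log2 fold change of -3.35 (SE 0.23). Both phosphatase genes were thus lower in every 2i/LIF library than in any LIF/serum library. Spry4 had 256 and 376 in 2i/LIF and 11527 and 8611 in LIF/serum, which is 31.8-fold lower in 2i/LIF (log2 fold change -4.99, SE 0.38). Egr1 had 58.4 and 57.7 in 2i/LIF and 1333 and 471 in LIF/serum. It was 15.5-fold lower in 2i/LIF (log2 fold change -3.96, SE 0.50), although the LIF/serum libraries differed 2.83-fold from each other. Without replicate 1 of the LIF/serum Dax1KO group the log2 fold change of Egr1 was -3.02, and without replicate 2 it was -4.52. Etv4 had 1301 and 1177 in 2i/LIF and 7405 and 6620 in LIF/serum, a log2 fold change of -2.50 (SE 0.13, adjusted p = 2.37e-05).

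The other genes differed less between the media in Dax1KO ESCs. Etv5 had normalized counts of 5168 and 4961 in 2i/LIF and of 10807 and 8182 in LIF/serum (log2 fold change -0.91, SE 0.16, adjusted p = 0.00486). Spry2 had 1721 and 1435 in 2i/LIF and 2858 and 2304 in LIF/serum (log2 fold change -0.71, SE 0.16, adjusted p = 0.0142). The adjusted p of Spry2 was 0.114 without replicate 2 of the 2i/LIF Dax1KO group and 0.0931 without replicate 1 of the LIF/serum Dax1KO group. Fos had 338 and 442 in 2i/LIF and 142 and 163 in LIF/serum. It was the only member called higher in 2i/LIF, by 2.56-fold (log2 fold change 1.36, SE 0.26, adjusted p = 0.00645), and without replicate 2 of the 2i/LIF Dax1KO group its adjusted p was 0.0536. Spred1 had 1899 and 2212 in 2i/LIF and 2397 and 2097 in LIF/serum, so its groups overlapped. Its log2 fold change was -0.13 with a 95% interval from -0.51 to 0.25 (adjusted p = 0.612). Ier3 had 904 and 1025 in 2i/LIF and 464 and 2055 in LIF/serum, and its interval ran from -1.90 to 1.13 on the log2 scale. Without replicate 2 of the LIF/serum Dax1KO group, which held the count of 2055, the log2 fold change of Ier3 was 1.06 in place of -0.39, and neither value passed the test. In total 8 of the 10 genes had groups that did not overlap, as did 68.9% of all genes.

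**Figure D2:**
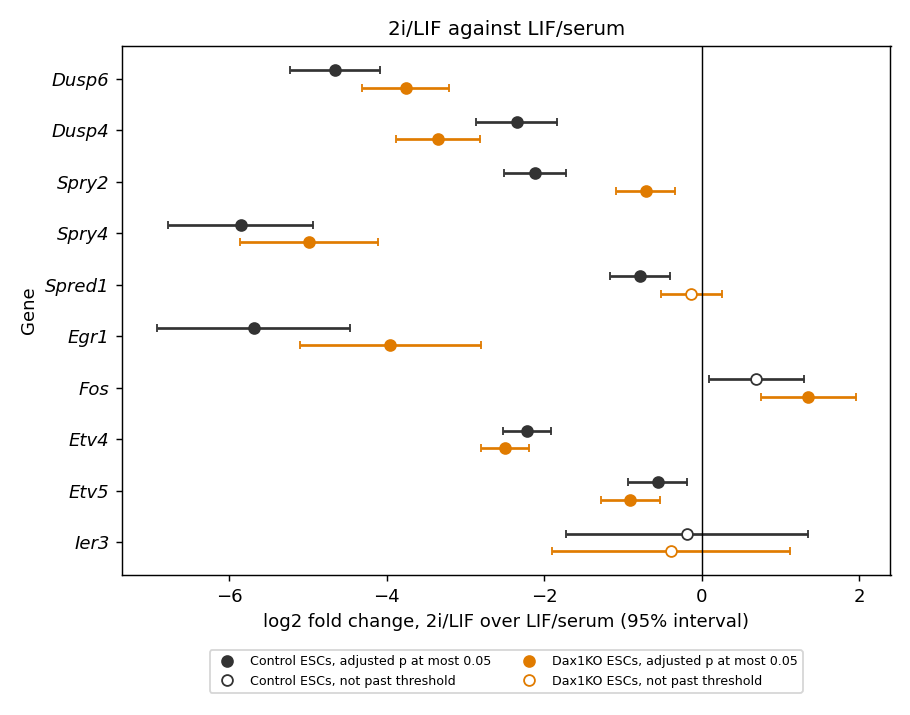
Log2 fold change of each gene in 2i/LIF over LIF/serum with its 95% interval, in control ESCs (black) and Dax1KO ESCs (orange), where filled points passed the adjusted p of 0.05. Spry4, Egr1 and Dusp6 lie furthest to the left in both cell lines, and Fos is the only gene to the right of 0 in both.

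Marker genes of other cell states moved with the medium as well. All 6 primitive endoderm markers were lower in 2i/LIF in both cell lines, with summed normalized counts of 1057 to 1072 in control and 1082 to 1393 in Dax1KO libraries in 2i/LIF, against 3915 to 5488 and 12283 to 14567 in LIF/serum. Of 5 formative or primed epiblast markers, 4 were lower in 2i/LIF in control ESCs and 5 in Dax1KO ESCs, with sums of 4969 to 5663 in 2i/LIF and 12529 to 14754 in LIF/serum. Fgf5, an epiblast marker, was at 0 in all 4 libraries in 2i/LIF, with means of 41.0 in control and 27.4 in Dax1KO libraries in LIF/serum. The 5 genes of handling and heat stress had 4 higher and 1 lower in 2i/LIF in control ESCs and 3 higher in Dax1KO ESCs. Their sums were 10569 to 13134 in 2i/LIF and 8574 to 12819 in LIF/serum. Of the other marker lists in control ESCs, 1 of 6 pluripotency genes was higher and 2 were lower in 2i/LIF, 2 of 6 trophectoderm genes were higher and 2 were lower, 1 of 4 neural genes was higher and 1 was lower, and 3 of 4 fibroblast genes tested were higher and 1 was lower. Of 4 mesoderm genes 0 passed in edgeR, with 2 at an unadjusted p under 0.05 and 1 called by DESeq2. In Dax1KO ESCs, 1 of the 6 pluripotency genes was higher and 4 were lower in 2i/LIF, 1 trophectoderm gene was higher and 2 were lower, 2 neural genes were higher and 1 was lower, and 1 fibroblast gene was higher and 1 was lower. Of the mesoderm genes 0 passed in Dax1KO ESCs in edgeR, with 0 at an unadjusted p under 0.05 and 0 called by DESeq2. No gene of these lists was at 0 in all libraries. The part of these cell states in the change of the ERK-response genes was not tested.

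Dax1KO and control ESCs were next compared within 2i/LIF, from the same libraries that entered the comparisons of media. Of the 10 genes, 2 were higher and 1 was lower in Dax1KO ESCs, beside 1.51% higher and 1.65% lower among all genes and 3.16% called in either direction. Etv4 was 1.69-fold higher, with normalized counts of 1301 and 1177 in Dax1KO against 718 and 751 in control libraries (log2 fold change 0.75, SE 0.13, adjusted p = 0.0266). Its paralog Etv5 went the other way, at 5168 and 4961 against 8253 and 9999, 1.80-fold lower (log2 fold change -0.85, SE 0.16, adjusted p = 0.037). Spry2 was 1.71-fold higher, at 1721 and 1435 against 1015 and 825 (log2 fold change 0.78, SE 0.16, adjusted p = 0.0486). The groups of these 3 genes were apart. With any 1 of the 4 libraries left out, 0 of the 10 genes passed the threshold in edgeR, although 3 to 5 had an unadjusted p under 0.05, and the log2 fold changes of the 3 genes kept their sign. DESeq2 on all libraries called 5, adding Spry4 (adjusted p = 0.0312) and Fos (adjusted p = 0.0368). In an edgeR fit of the 4 libraries in 2i/LIF alone, Spry2 lost its call (adjusted p = 0.0727) and Ier3 passed (log2 fold change 1.18, adjusted p = 0.0381). In the same comparison 2 of 6 trophectoderm markers, the keratin genes Krt8 and Krt18, were higher in Dax1KO ESCs. The sums over the 6 genes were 3722 to 3915 against 1558 to 2193. Gata3 had a lower estimate (log2 fold change -1.44) and Eomes and Elf5 had higher ones (0.60 and 1.51), none of which passed. Cdx2 was at a mean of 0 in both groups. Of the 6 primitive endoderm markers 1, Dab2, was higher (log2 fold change 1.28, adjusted p = 0.0423). Gata6 (-1.13), Pdgfra (-0.29) and Gata4 (-0.16) had lower estimates and Sox17 (0.75) and Sox7 (0.41) higher ones, none of which passed. The sums over the 6 genes were 1082 to 1393 against 1057 to 1072. Of 4 fibroblast markers tested 1, Thy1, was lower, at sums over the list of 1235 to 1279 against 1858 to 2341. The part of these markers in the differences was not tested.

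The other 7 genes did not pass the test in 2i/LIF in the fit of all 8 libraries. Spry4, at 256 and 376 in Dax1KO against 97.3 and 222 in control libraries, had a log2 fold change of 0.98 (95% interval 0.17 to 1.80, adjusted p = 0.196). It was 0.51 without replicate 1 of the control and 1.71 without replicate 2. Fos, at 338 and 442 against 248 and 164, had 0.92 (95% interval 0.33 to 1.51, adjusted p = 0.104). Ier3, at 904 and 1025 against 383 and 474, had 1.17 (95% interval -0.37 to 2.71, adjusted p = 0.427). The Dax1KO libraries of these 3 genes all lay above the control libraries. The 95% intervals are not adjusted for the number of genes tested. They lay above no difference for Spry4 and Fos, and the wide interval of Ier3 enclosed it. Dusp6 (0.26, 95% interval -0.28 to 0.81), Dusp4 (-0.03, -0.55 to 0.48), Spred1 (0.00, -0.38 to 0.39) and Egr1 (0.16, -1.04 to 1.35) had overlapping groups, given here as log2 fold changes with 95% intervals. In total 6 of the 10 genes had groups that did not overlap, as did 51.8% of all genes.

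Within LIF/serum, 2 of the 10 genes were higher and 3 were lower in Dax1KO than in control ESCs. Among all genes, 8.87% were higher and 5.78% were lower, 14.7% in either direction. The median log2 fold change of the 10 genes was -0.19. Etv4 was 2.05-fold higher in Dax1KO ESCs, with normalized counts of 7405 and 6620 against 3662 and 3172 (log2 fold change 1.04, SE 0.13, adjusted p = 0.00345). Dusp4 was 1.96-fold higher, at 1691 and 1450 against 904 and 701 (log2 fold change 0.97, SE 0.21, adjusted p = 0.0218). The groups of both genes were apart.

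The 3 genes lower in Dax1KO ESCs in LIF/serum were Egr1, Spred1 and Spry2. Egr1 was 2.99-fold lower, at 1333 and 471 in Dax1KO against 3080 and 2315 in control libraries (log2 fold change -1.58, SE 0.43, adjusted p = 0.0446). Spred1 was 1.57-fold lower, at 2397 and 2097 against 4018 and 3033 (log2 fold change -0.65, SE 0.17, adjusted p = 0.0379). Spry2 was 1.55-fold lower, at 2858 and 2304 against 3886 and 4103 (log2 fold change -0.63, SE 0.16, adjusted p = 0.0388). The 3 adjusted p-values were just under the threshold, and a fit of the 4 LIF/serum libraries alone called only Etv4 and Dusp4 of the 10 genes. Etv4 passed the threshold with each library left out in turn. Spry2 lost its call with each of the 4 libraries left out (adjusted p = 0.0595 to 0.208). Dusp4 kept its call without replicate 1 of the control (adjusted p = 0.0386) and lost it without each of the other 3 libraries (0.0751 to 0.103). Spred1 kept its call without replicate 2 of the control (adjusted p = 0.0317) and lost it without each of the others (0.0875 to 0.194). Egr1 kept its call without replicate 1 of the Dax1KO group (adjusted p = 0.013) and lost it without each of the others (0.0849 to 0.152). The lower count of Egr1 came from replicate 2 of the LIF/serum Dax1KO group, without which Egr1 had a log2 fold change of -1.01 (adjusted p = 0.105). Without replicate 1 of that group it had -2.52.

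Among the genes that did not pass in LIF/serum, Dusp6 was at 1714 and 1252 in Dax1KO against 2453 and 2171 in control libraries (log2 fold change -0.64, 95% interval -1.12 to -0.16, adjusted p = 0.0771). Etv5 was at 10807 and 8182 against 14404 and 12426 (log2 fold change -0.50, 95% interval -0.87 to -0.13, adjusted p = 0.0776). Both had groups that were apart, and DESeq2 called both (adjusted p = 0.0263 and 0.0323). Fos was at 142 and 163 against 135 and 119 (log2 fold change 0.26, 95% interval -0.34 to 0.86). Spry4 overlapped between the cell lines at 11527 and 8611 against 9667 and 8871 (log2 fold change 0.12, 95% interval -0.61 to 0.85). Ier3 had a log2 fold change of 1.37 with a 95% interval from -0.17 to 2.92, and -0.06 without replicate 2 of the LIF/serum Dax1KO group. In total 8 of the 10 genes had groups that did not overlap, as did 57.5% of all genes. In the same comparison 5 of the 6 primitive endoderm markers were higher in Dax1KO ESCs, at sums of 12283 to 14567 against 3915 to 5488. Of the other markers, 2 of 6 trophectoderm genes, Eomes and Krt18, were higher (sums of 3799 to 4444 against 2534 to 2602). Likewise 2 of 4 fibroblast genes tested, Col1a1 and Thy1, were higher (sums of 1434 to 1498 against 458 to 483, mostly from Thy1). Of 4 neural genes 1, Pax6, was lower (log2 fold change -2.30), at means of 39.0 in Dax1KO against 193 in control libraries. The neural sums, 4407 to 5378 against 5464 to 6092, came mostly from Tubb3, which did not pass (-0.16, adjusted p = 0.491). Of the 5 genes of handling and heat stress 1 was higher and 1 was lower, at sums of 8574 to 8933 against 11398 to 12819. The part of all these markers in the differences was not tested.

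**Figure D3:**
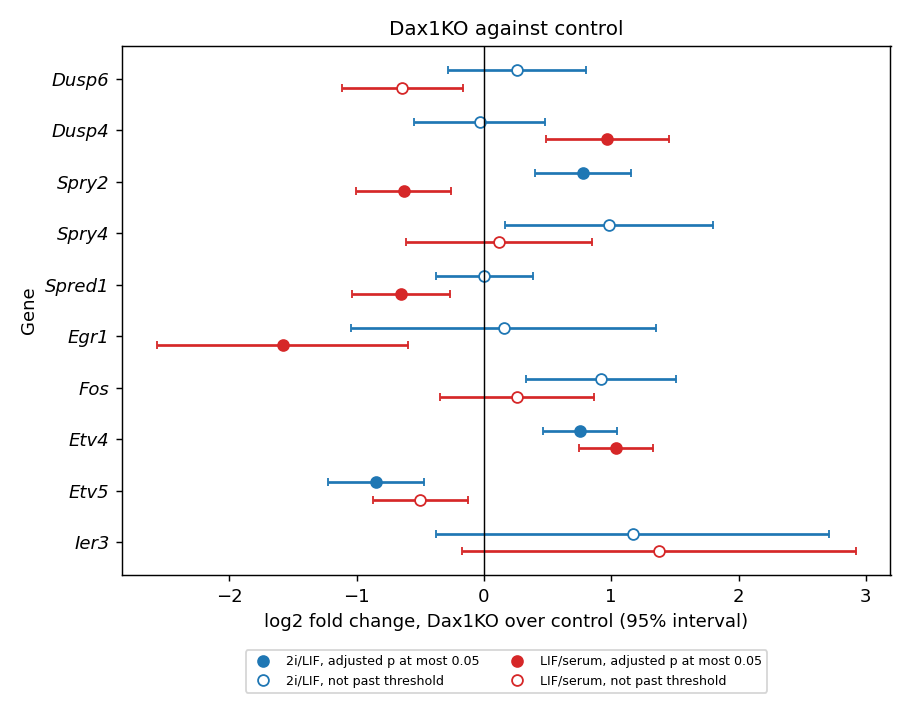
Log2 fold change of each gene in Dax1KO over control ESCs with its 95% interval, in 2i/LIF (blue) and LIF/serum (red), where filled points passed the adjusted p of 0.05. Etv4 lies to the right of 0 in both media, Etv5 to the left in both, and Spry2 on opposite sides.

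Whether the medium difference itself differed between the cell lines was tested as an interaction over all 8 libraries. Of the 10 genes, 1 passed, beside 2.87% of all genes, with 0.824% higher and 2.05% lower. Spry2 fell 4.34-fold from LIF/serum to 2i/LIF in control ESCs and 1.64-fold in Dax1KO ESCs, a difference of 1.41 on the log2 scale (SE 0.23, adjusted p = 0.0268). The Dax1KO libraries of Spry2 were above the control libraries in 2i/LIF and below them in LIF/serum. With each of the 8 libraries left out in turn the difference stayed between 1.26 and 1.57, and its adjusted p rose to 0.0515 to 0.113. Egr1 had a larger estimate, 1.74, with a wider interval (0.19 to 3.28, adjusted p = 0.213), and DESeq2 called it (adjusted p = 0.0363). Without replicate 1 of the LIF/serum Dax1KO group, Egr1 had 2.67 (adjusted p = 0.0482). Dusp4 had -1.002 (95% interval -1.70 to -0.30, adjusted p = 0.13) and Dusp6 0.90 (0.18 to 1.63, adjusted p = 0.172). Etv4, at -0.28 (95% interval -0.69 to 0.13), and Etv5, at -0.35 (-0.88 to 0.18), had estimates of 1.22-fold and 1.28-fold, and neither passed (adjusted p = 0.443 and 0.462). The calls of Spred1 and Fos in only 1 of the cell lines do not show a difference between them, since their interactions, 0.65 and 0.66, did not pass (adjusted p = 0.183 and 0.378). In the same test the difference was negative for 2 of 6 primitive endoderm markers and 1 of 4 fibroblast markers tested and positive for 1 of 4 neural markers, and their part in these differences was not tested.

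The order of the groups by mean normalized count divided the 10 genes. Dusp6, Spry2, Egr1, Spred1 and Etv5 were highest in LIF/serum control ESCs, Dusp4, Etv4, Spry4 and Ier3 in LIF/serum Dax1KO ESCs, and Fos in 2i/LIF Dax1KO ESCs. The lowest group was the 2i/LIF control for 7 of the 10 genes. Neighbouring groups in this order overlapped for Dusp6, Egr1 and Dusp4 between the cell lines in 2i/LIF. They overlapped for Spry4 between the cell lines in LIF/serum. Spred1 in LIF/serum Dax1KO libraries overlapped with both 2i/LIF groups, and Etv5 in LIF/serum Dax1KO libraries overlapped with the 2i/LIF control. Ier3 overlapped between the media in both cell lines. For Spry2, Fos and Etv4 all 4 groups were apart. Per kilobase of merged exons, Etv5 had the highest level of the 10 genes in both media of control ESCs, 2224 in 2i/LIF and 3270 in LIF/serum as mean normalized count per kilobase. Egr1 had the lowest in 2i/LIF, 11.6, and Fos the lowest in LIF/serum, 54.0. Spry4 ranked 2 of 10 in LIF/serum at 1949 and 8 of 10 in 2i/LIF at 33.6.

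Over the 8 libraries, the log2 library-scaled counts (CPM) of Spry4 and Egr1 followed those of Dusp6 most closely among the other members (Pearson r of 0.98 for each). Dusp4, Spry2 and Etv4 had r of 0.94, 0.92 and 0.90, Spred1 and Etv5 had 0.74 and 0.72, Ier3 had -0.07, and Fos had -0.77. These values describe 4 groups of 2 libraries, which share cell line and medium, and carry no test. Outside the members and the lists, the genes most like Dusp6 were Mir124a-1hg, Zswim4, Atf6b, Spink1 and Synpo2l, with r of 0.994 to 0.998. Zswim4 had counts of 986 to 1199 in the 2i/LIF libraries and 2430 to 2748 in the LIF/serum libraries, a far smaller span than Dusp6 at 88 to 132 and 1284 to 2314.

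Other genes of the pathway were read from lists set beside the members, in the comparison of media in control ESCs. Their counts stand beside the 36.8% of all genes called there. Of 9 other feedback regulators tested, 2 were lower in 2i/LIF and 0 were higher, at a median log2 fold change of -0.23. The 2 were the phosphatase gene Dusp2 (log2 fold change -1.25, adjusted p = 0.0272), at a low mean normalized count in both media, 23.5 in 2i/LIF and 56.3 in LIF/serum, and Spry1 (-1.04, adjusted p = 0.00148), another Sprouty gene. Of 15 other immediate-early and ERK-response genes tested, 5 were lower and 2 were higher, at a median of -0.55. By size these were led by Ier5, which was higher (2.20, adjusted p = 0.000339), and by Phlda1 (-1.88, adjusted p = 0.000163) and the ETS factor gene Etv1 (-1.46, adjusted p = 0.00881), which were lower. Of 23 components of the cascade itself, 3 were higher and 3 were lower, at a median of 0.09. The largest were the exchange factor gene Sos2 (0.70, adjusted p = 0.0172), Mapk3, which encodes ERK1 (-0.64, adjusted p = 0.00902), and the scaffold gene Ksr1 (0.56, adjusted p = 0.0246). Sos2 thus had the largest change of a cascade component that passed, at 0.70 on the log2 scale, where Dusp6 had -4.66.

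In Dax1KO ESCs the medium comparison gave 1 lower and 0 higher of the 9 feedback regulators, 5 lower and 3 higher of the 15 response genes, and 2 higher and 1 lower of the 23 cascade components, where 28.9% of all genes were called. Between Dax1KO and control ESCs, 0 of the 9 feedback regulators passed in edgeR in either medium, with 2 in each at an unadjusted p under 0.05 and 1 in each called by DESeq2. Of the 15 response genes, 1 was higher and 1 was lower in 2i/LIF, and 2 were higher and 3 were lower in LIF/serum. Of the 23 cascade components, 2 were higher and 0 were lower in 2i/LIF. Among all genes, the called share was 3.16% in 2i/LIF and, for LIF/serum, 14.7%. In the interaction, Junb, a partner of Fos in AP-1, was the only one of the 15 response genes that passed in edgeR (4 had an unadjusted p under 0.05 and DESeq2 called 2), with a difference of 1.68 (adjusted p = 0.0148). Junb was named after its values were seen, and like Spry2 it was lower in 2i/LIF than in LIF/serum in control ESCs, at mean normalized counts of 1057 and 2532, while its Dax1KO means were 2077 in 2i/LIF and 1555 in LIF/serum.

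**Figure D4:**
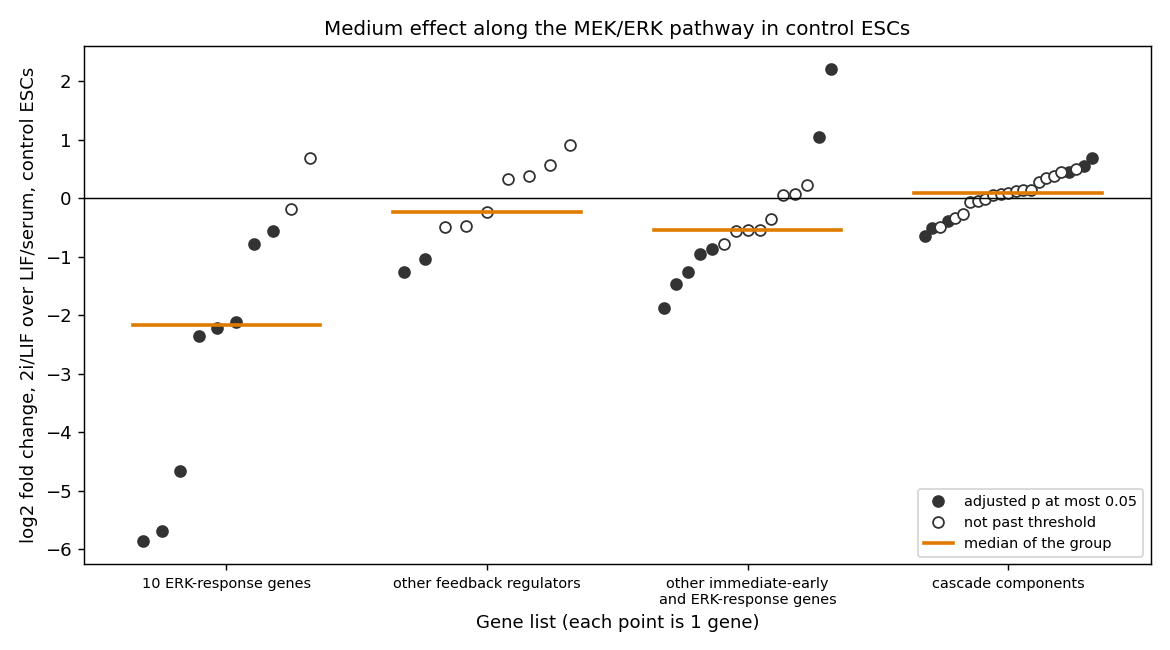
Log2 fold change in 2i/LIF over LIF/serum in control ESCs for the 10 ERK-response genes and the 3 lists of other pathway genes, each point 1 gene and each orange line the median of its group. Filled points passed the adjusted p of 0.05, and the medians are -2.17, -0.23, -0.55 and 0.09 from left to right.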

How the data were processed

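The 8 mRNA libraries came from control and Dax1KO ESCs in both media, and libraries were assigned to groups by their titles. The authors deposited whole-number counts per gene for each library, without normalization. The submitters' processing notes name mm10, HISAT2 2.0.4 and DESeq2, and the counting tool, annotation and use of strand are not given in the sources used here. Symbols came from GENCODE M21 (GRCm38), in which 52403 of 52550 identifiers were found. Counts were fitted with edgeR 4.0.16 in R 4.3.3 (filterByExpr, TMM factors of 0.960 to 1.04, a mean for each of the 4 groups), and P was adjusted over all 20749 genes by the Benjamini-Hochberg method. The biological coefficient of variation was 20.9%. The 2 libraries of a group give a poor estimate of a gene's spread, so the estimate is shared across genes. Transcripts were compared with blastn 2.17.0 at 95% identity.

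The members, the pathway lists and the marker lists (pluripotency, epiblast, primitive endoderm, trophectoderm, neural, mesoderm, fibroblast, handling stress) were chosen with earlier results of these data known. All 10 members are named, and of the pathway lists the 3 largest called changes between media in control ESCs. For the cascade list, the genotype comparison in LIF/serum is not reported here. The rule for promoters would have shown Dusp6, Dusp4 and Etv4, of which the promoter table held Dusp6. Alternatives were DESeq2 1.42.0, RLE factors, no filter, at least 10 counts in every library, separate fits, a replicate block, thinned counts, each library left out, and, added after seeing the data, counts divided by 8/3.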

Additional observations from a re-analysis of the deposited data

Results flagged for a closer look

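For Spry2 the effect of the medium differed between the cell lines. Its log2 fold change from LIF/serum to 2i/LIF was -2.12 in control and -0.71 in Dax1KO ESCs, a difference of 1.41 (SE 0.23, adjusted p = 0.0268, edgeR interaction over 8 libraries). With each library left out in turn the difference stayed positive (1.26 to 1.57) and the adjusted p passed the threshold in none of these 8 fits (0.0515 to 0.113). Without the filter on low counts the adjusted p was 0.0778.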

How the results depend on the processing

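In the comparison of media, the calls of Dusp6, Dusp4, Spry4, Egr1 and Etv4 held under all alternatives in both cell lines. The genotype calls did not hold as widely. With DESeq2 the members called went from 3 to 5 in 2i/LIF and from 1 to 2 for the difference of the medium effect, and all genes called rose to 1455 and 1510 from 656 and 596. Without the filter on low counts, the members called between genotypes were 0 in 2i/LIF, 1 in LIF/serum and 0 for the difference, and all genes called were 121, 1842 and 119. Beside these 2 counts of 0 stand the 3 genes in 2i/LIF (adjusted p = 0.0623 to 0.113) and Spry2 (0.0778). Between media in control ESCs Etv5 lost its call in this setting (adjusted p = 0.068), which left 7 members. More genes were tested in this setting. A separate fit of the 2i/LIF libraries called 3 members, with Ier3 gained (1.18, adjusted p = 0.0381) and Spry2 lost (adjusted p = 0.0727). A separate fit of the LIF/serum libraries called 2 members and 1743 genes, where fewer libraries entered the fit.

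With 1 library left out, members called were 6 to 9 between media in control and 6 to 8 in Dax1KO ESCs, 0 to 0 between genotypes in 2i/LIF, 1 to 2 in LIF/serum and 0 to 1 for the difference. The lone library of its group was then assumed to vary like the others. All genes called were 5057 to 6346, 2986 to 3691, 38 to 166, 728 to 2032 and 36 to 344 in the same order. Estimates that changed sign were those of genes with no call. Ier3 ran from -0.77 to 0.80 and from -1.09 to 1.06 between media in control and Dax1KO ESCs, from -0.065 to 2.36 between genotypes in LIF/serum and from -1.20 to 1.23 for the difference. In 2i/LIF between genotypes, Spred1 ran from -0.11 to 0.11, Dusp4 from -0.28 to 0.18, Egr1 from -0.13 to 0.53 and Dusp6 from -0.026 to 0.50. Spry4 ran from -0.10 to 0.32 in LIF/serum.

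In the fit with a replicate block the members called were 8, 8, 3, 5 and 1, and 1 estimate changed sign, that of Ier3 between media in control ESCs, at 0.023. Deviations of same-numbered libraries correlated at -0.01 to 0.11 between groups, so the numbers were not taken as pairs. RLE factors, at least 10 counts in every library, thinned counts and counts divided by 8/3 changed no call of a member. Where a cause of a change is not named, the cause was not tested. In 2i/LIF, Egr1, Dusp6 and Dusp4 lay at 40 to 182 counts.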

Other observations

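Within a library, the paralogs Etv5 and Etv4 were compared per kilobase of merged exons, so that their ratio does not depend on library size. In 2i/LIF the ratio of Etv5 to Etv4 was 8.70 and 10.1 for control ESCs and 3.00 and 3.19 for Dax1KO ESCs. The corresponding LIF/serum ratios were 2.98 and 2.96 for control ESCs and 1.10 and 0.935 for Dax1KO ESCs. The ratio of the immediate-early genes Egr1 to Fos was 0.0685 to 0.136 in the 4 libraries in 2i/LIF, 11.998 and 10.2 in the LIF/serum control libraries, and 4.94 and 1.52 in the LIF/serum Dax1KO libraries. Dusp6 to Dusp4 was 0.481 to 0.635 in 2i/LIF, 2.37 and 2.71 in LIF/serum control and 0.887 and 0.755 in LIF/serum Dax1KO libraries. These ratios were chosen after the values were seen and carry no test.

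In the LIF/serum Dax1KO group, Ier3 was 4.43-fold higher in replicate 2 than in replicate 1, and Egr1 was 2.83-fold higher in replicate 1 than in replicate 2. In the LIF/serum control group, Ier3 was 3.00-fold higher in replicate 2, and Egr1 was 1.33-fold higher in replicate 1. The other 8 genes differed by at most 1.37-fold between the libraries of either group.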
